A study of Mus musculus with 14 samples.

Results

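Complement is a set of plasma and membrane proteins that marks microbes and damaged cells for removal. The classical pathway starts when C1q, a molecule built from A, B and C chains, binds its target and the attached proteases cleave C4 and C2, whereas the alternative pathway uses factor B. Both lead to enzymes that cleave C3, inhibitors in plasma and on cell surfaces hold these steps in check, and receptors for the released fragments act on leukocytes. In the lung, macrophages are a known source of C1q, and epithelial and stromal cells also make complement proteins.

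The members were 9 genes chosen by symbol, namely C1qa, C1qb, C1qc, C3, C4b, Cfb, Serping1, Cd55 and C3ar1, and 8 of them were measured among 18193 genes in all. Of the 8, 7 had probe sets of their own. C4b was read by a probe set that the annotation gives to C4a and C4b together, so its values are named C4a/C4b. C3 is not analysed here, since no probe set carried its symbol in the annotation used. Messenger RNA of whole lungs had been measured on 14 oligonucleotide arrays, with 2 replicates at each of 7 time points. These were embryonic days 12, 14, 16 and 18 (E12, E14, E16 and E18), postnatal days 2 and 10 (P2 and P10), and postnatal day 30 (Adult). All mice were of the ICR strain and labelled female, none was treated or genetically modified, and the RNA came from pooled lungs. The size of the pools and the independence of the replicates are not stated, so the spread between replicates may be technical. Values are on a log2 scale, on which a difference of 1 is a 2-fold change, and probe sets of different genes cannot be ranked against each other by level.

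Array medians lay between 6.546 and 6.625, and the replicates of a time point correlated at 0.99534 to 0.99768 over all probe sets. One linear model with a mean per time point was fitted with limma to all 45037 probe sets, and each adjusted p below is its Benjamini-Hochberg value over those probe sets. In pooled whole lung, fewer cells of a type and less RNA per cell cannot be told apart. The 4 measured markers of alveolar type II cells, a cell type of the lung, averaged 13.57 and 13.57 in Adult and 8.36 and 8.35 at E12. Heart muscle markers averaged 11.06 on E16 replicate 1 and 8.12 on E16 replicate 2, and the members averaged 7.74 and 7.70 on the same arrays. Leukocyte markers averaged 8.25 and 7.80 there, and neutrophil markers 6.72 and 6.29. Of the members, C4a/C4b and C3ar1 were higher on E16 replicate 2, and the others, the C1q chains among them, on replicate 1. The part of these uneven arrays in the members' values was not tested.

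Of the 8 measured members, 7 changed across the 7 time points, where 73.2% of all genes did so, and C3ar1 did not pass (adjusted p = 0.182). The same 7 were higher in Adult than in E12, where 35% of genes were higher and 30.2% were lower. The median change of the 8 members was 1.33, against 0.08 over all genes. Serping1 and C4a/C4b had increases of more than 11-fold, Cfb of 5.09-fold, Cd55 of 2.75-fold (5.8-fold and 2.83-fold by its other probe sets), and the 3 C1q chains of between 1.44-fold and 2.29-fold. The study required a highest value above 7 and a range over the time points above 1.2. With these thresholds on the means and an adjusted p under 0.05, 4 of the 8 were dynamic, where 26.7% of genes were. With 1.2 applied to Adult minus E12 instead, and 7 to the higher of the 2 means, 4 were higher in Adult, where 11.5% of genes were.

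**Figure D1:**
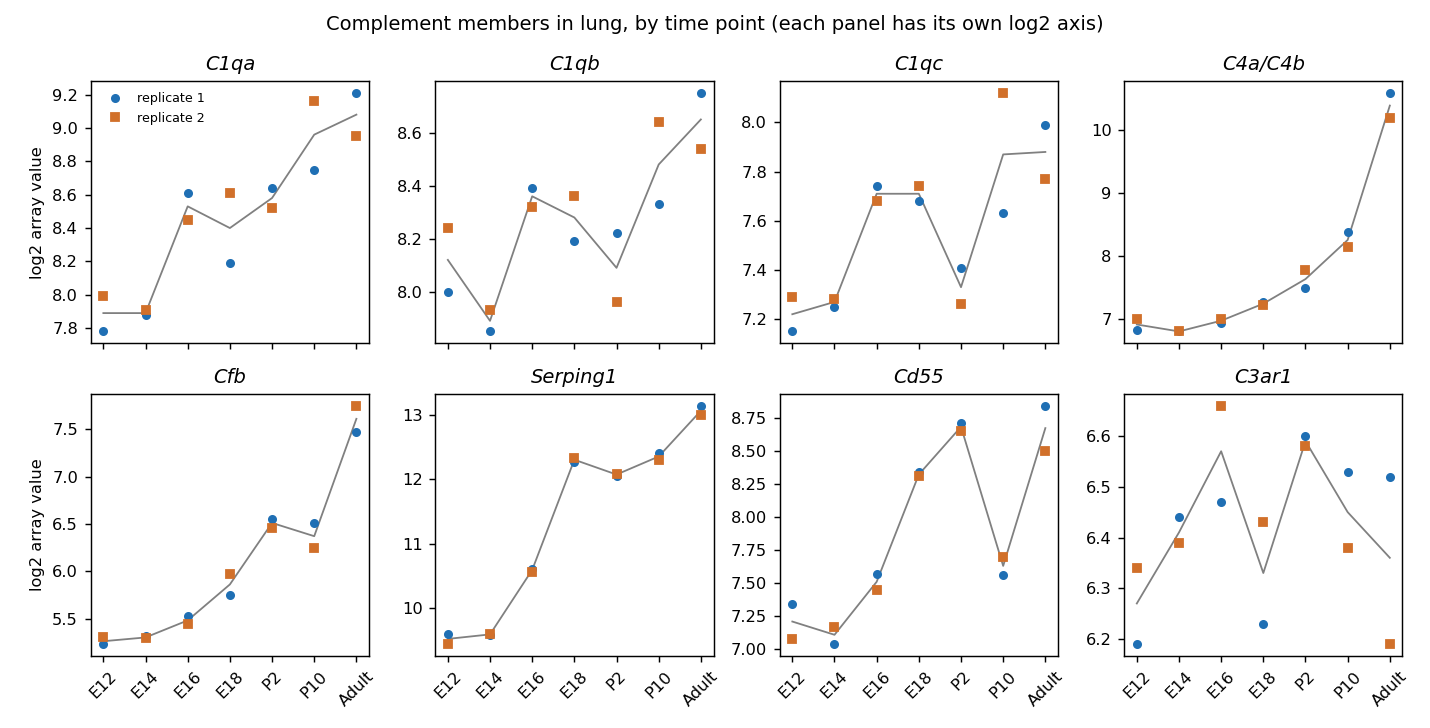
Log2 array values of the 8 measured members (y axis, a separate scale in each panel) at the 7 time points (x axis, evenly spaced), with circles for replicate 1, squares for replicate 2 and a line through the means. C4a/C4b climbs late to 10.59 and 10.19 in Adult, Serping1 climbs by E18 to 12.27 and 12.33, Cd55 has a low at P10, and C3ar1 stays between 6.19 and 6.66.

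The C1q chains are encoded side by side on mouse chromosome 4, in the order C1qb, C1qc, C1qa among protein-coding genes of the GRCm38.p6 assembly. Upstream sequences were at hand for C1qb and C1qc, and they are shown because these neighbouring genes had similar courses. Each run is the 250 bases before the start that the RefSeq promoter table uses, on the minus strand of GRCm38.p6, at chr4:136886201-136886450 for C1qb and chr4:136892915-136893164 for C1qc. Capitals mark GAGGAA, a core recognised by the myeloid transcription factor PU.1, or its reverse complement.
C1qb: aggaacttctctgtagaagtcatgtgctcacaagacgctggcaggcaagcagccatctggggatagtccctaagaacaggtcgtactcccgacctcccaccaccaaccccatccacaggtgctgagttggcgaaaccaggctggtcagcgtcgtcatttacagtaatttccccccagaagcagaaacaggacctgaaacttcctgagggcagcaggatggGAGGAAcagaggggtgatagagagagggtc
C1qc: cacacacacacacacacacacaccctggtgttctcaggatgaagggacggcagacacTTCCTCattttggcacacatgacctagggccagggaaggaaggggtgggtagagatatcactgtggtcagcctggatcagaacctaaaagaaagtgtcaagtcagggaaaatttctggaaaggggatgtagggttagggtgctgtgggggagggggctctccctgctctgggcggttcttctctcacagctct
C1qb holds the core on the plus strand of the run, 30 to 25 bases before the start, and C1qc holds it on the opposite strand, 193 to 188 bases before the table's start. For C1qc that start lies 22 bases inside the annotated gene, so the run reaches into the gene. The same letters occur on either strand in 23.3% of the 32851 promoters of this length in the table. The table's runs for Cd55 and C3ar1 held no GAGGAA, and that of Cd55 lies inside the annotated gene, with its start 2265 bases from the gene's outer end. The STAT element TTCNNNGAA (7.02% of promoters, either strand) and the CCAAT box CCAAT (33.8%) were in none of these 4 sequences, and the TATA box TATAAA (12.4%) was in that of C3ar1 alone.

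C1qa, the A chain, read 7.78 and 7.99 at E12, 7.88 and 7.91 at E14, 8.61 and 8.45 at E16, 8.19 and 8.61 at E18, 8.64 and 8.52 at P2, 8.75 and 9.16 at P10, and 9.21 and 8.95 in Adult (replicates 1 and 2). The E12 and E14 arrays were the lowest, and from E16 on all arrays lay above them. Adult exceeded E12 by 1.19 ± 0.16 (SE, n = 2 each, limma adjusted p = 1.55e-05), a 2.29-fold difference. C1qb, the B chain, read 8.0 and 8.24 at E12, 7.85 and 7.93 at E14, 8.39 and 8.32 at E16, 8.19 and 8.36 at E18, 8.22 and 7.96 at P2, 8.33 and 8.64 at P10, and 8.75 and 8.54 in Adult. Several of its time points overlapped, such as E12, E18 and P2, while the Adult arrays overlapped those of P10 alone. Adult exceeded E12 by 0.53 ± 0.13 (SE, limma adjusted p = 0.00352). C1qc, the C chain, read 7.15 and 7.29 at E12, 7.25 and 7.28 at E14, 7.74 and 7.68 at E16, 7.68 and 7.74 at E18, 7.41 and 7.26 at P2, 7.63 and 8.12 at P10, and 7.99 and 7.77 in Adult. It was low at E12, E14 and P2, and Adult exceeded E12 by 0.66 ± 0.14 (SE, limma adjusted p = 0.000854).

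All 3 chains rose between E14 and E16. The increases of E16 over E14 were 0.64 for C1qa (limma adjusted p = 0.0143), 0.46 for C1qb (adjusted p = 0.0288) and 0.45 for C1qc (adjusted p = 0.04). Leaving out either E14 array or E16 replicate 1 took all 3 past 0.05, with C1qa at 0.0579 to 0.117, and leaving out E16 replicate 2 did so for C1qb and C1qc. The C1qc increase was also lost without any one of the E18 or P2 arrays (adjusted p 0.0503 to 0.0516). C1qc was also higher at P10 than at P2, by 0.54 (adjusted p = 0.0315), and this call was lost without P2 replicate 1 (adjusted p = 0.102), P2 replicate 2 (0.202) or P10 replicate 2 (0.251). For C1qa and C1qb the same step was 0.38 (adjusted p = 0.206) and 0.40 (adjusted p = 0.102). Between P10 and Adult no chain passed the test. In the order of the means, C1qa at E18 lay above E14 beyond the spread, while no neighbours in the order of C1qb or C1qc could be told apart. The other probe sets of C1qb did not pass between E16 and E14 (0.28, adjusted p = 0.211, and 0.37, adjusted p = 0.0862). They were higher in Adult than in E12 by 0.37 (adjusted p = 0.0354) and 0.72 (adjusted p = 0.000428), and the one with the smaller change did not pass across the 7 time points (adjusted p = 0.0843). After E16, C1qc was lower at P2 than at E16 by 0.38 (adjusted p = 0.0428).

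The chains also moved together between replicates, in differences that enter the contrasts between time points as their spread. Replicate 2 lay on the same side of replicate 1 in all 3 chains at 7 of 7 time points. At P10 replicate 2 was above replicate 1 by 0.41 in C1qa, 0.30 in C1qb and 0.49 in C1qc, and in Adult it was below by 0.26, 0.21 and 0.22. Over the 14 arrays Pearson's r was 0.91 between C1qb and C1qc, 0.87 between C1qa and C1qb, and 0.85 between C1qa and C1qc, where the points share arrays and time points. Of 12 macrophage markers, each shared the sign of the C1q difference at 1 to 6 of the 7 time points. Their mean level on replicates 1 and 2 was 6.84 and 6.84 at E12, 7.00 and 7.05 at E14, 7.60 and 7.48 at E16, 8.75 and 8.90 at E18, 9.23 and 9.18 at P2, 9.05 and 8.88 at P10, and 9.78 and 9.82 in Adult. It thus differed in the direction of C1q at E14, E16, E18 and P2 and in the other direction at P10 and in Adult. The mean of 5 leukocyte markers differed in the direction of C1q at E16 (8.25 and 7.80), E18, P2 and P10 (9.56 and 9.66). At E12 and in Adult that mean differed in the other direction, and at E14 it was 7.56 and 7.56. The part of either list in the C1q values was not tested.

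**Figure D2:**
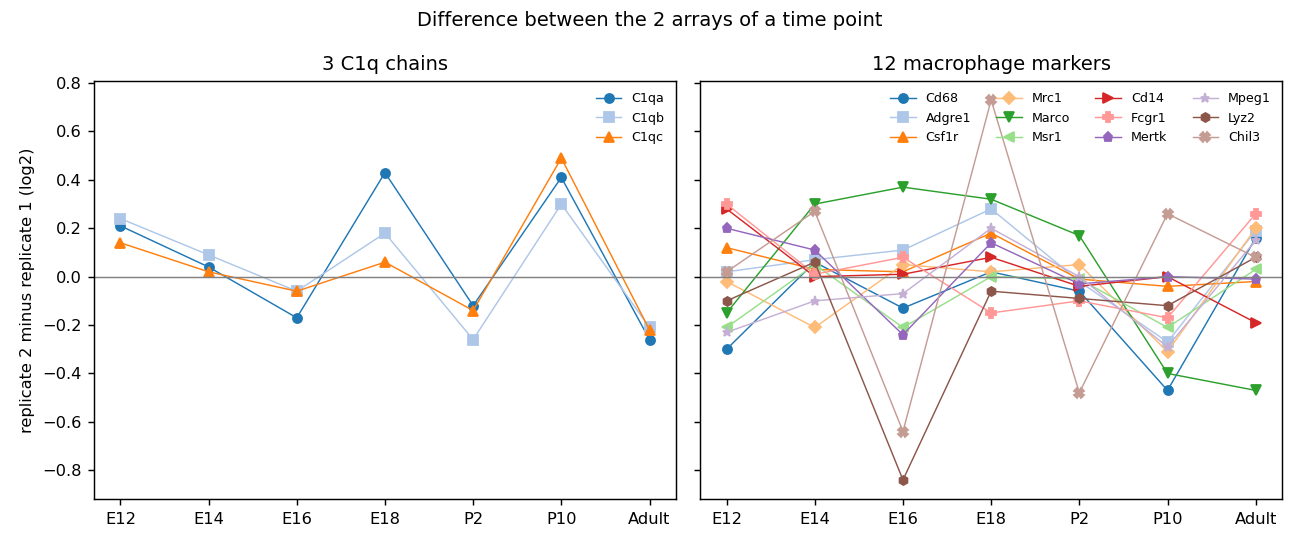
Replicate 2 minus replicate 1 (y axis, log2) at each time point (x axis) for the 3 C1q chains on the left and 12 macrophage markers on the right. The 3 chains lie on the same side of 0 at 7 of 7 time points, although at E14 their differences are only 0.04, 0.09 and 0.02. Single macrophage markers share the side of C1q at 1 to 6 of the 7 time points.

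C4a/C4b, whose product C4 is cleaved to form part of the classical C3 convertase, read 6.84 and 7.01 at E12, 6.81 and 6.81 at E14, 6.95 and 7.00 at E16, 7.27 and 7.23 at E18, 7.5 and 7.78 at P2, 8.38 and 8.15 at P10, and 10.59 and 10.19 in Adult. Both Adult arrays stood well above every other array. Adult exceeded E12 by 3.47 ± 0.13 (SE, limma adjusted p = 6.3e-11), an 11.1-fold difference, and exceeded P10 by 2.13 (adjusted p = 1.1e-07), a 4.37-fold difference. At E18 the mean had covered 9.42% of the difference between Adult and E12, and at P10 38.6%. P10 was above P2 by 0.62 (adjusted p = 0.0134), which was lost without P2 replicate 1 (adjusted p = 0.172) or P10 replicate 1 (0.0894). E18 and E12 differed by 0.33 (adjusted p = 0.0584). C4a is a transcribed pseudogene in the reference annotation, and the part of each gene in this signal was not tested.

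Cfb, which encodes factor B, the protease of the alternative pathway convertase, read 5.23 and 5.30 at E12, 5.31 and 5.29 at E14, 5.53 and 5.44 at E16, 5.75 and 5.97 at E18, 6.55 and 6.46 at P2, 6.51 and 6.24 at P10, and 7.47 and 7.75 in Adult. Its values stepped up before birth, after birth and after P10, and the P2 and P10 arrays overlapped. The steps were 0.38 at E18 over E16 (adjusted p = 0.0217), 0.65 at P2 over E18 (adjusted p = 0.00242) and 1.23 at Adult over P10 (adjusted p = 4.77e-06). The first of them was lost without E16 replicate 2 (adjusted p = 0.114) or E18 replicate 2 (0.172). Adult exceeded E12 by 2.35 ± 0.12 (SE, limma adjusted p = 8.56e-10), and P10 and P2 differed by -0.13 (adjusted p = 0.632). Cfb reached a mean above 7 in Adult alone. Its course was the one most like that of C4a/C4b among the members (r = 0.94 over 14 arrays), and Cfb had covered 25.4% of its difference between Adult and E12 at E18 and 47.4% at P10.

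Serping1, the gene of the C1 inhibitor that inactivates the C1r and C1s proteases, read 9.60 and 9.44 at E12, 9.58 and 9.59 at E14, 10.61 and 10.56 at E16, 12.27 and 12.33 at E18, 12.05 and 12.08 at P2, 12.40 and 12.30 at P10, and 13.14 and 12.99 in Adult. The E14, E16 and E18 arrays stood apart from each other, and the Adult arrays were the highest. E16 exceeded E14 by 1.0 (adjusted p = 1.18e-05) and E18 exceeded E16 by 1.72 (adjusted p = 9.46e-09), a 3.28-fold step. At E18 it had covered 78.5% of the difference between Adult and E12, which was 3.54 ± 0.092 (SE, limma adjusted p = 2.15e-12), an 11.7-fold change. After birth P2 and E18 differed by -0.24 (adjusted p = 0.106), and Adult exceeded P10 by 0.71 (adjusted p = 6.15e-05). These calls held when any single array was left out.

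Cd55 encodes decay-accelerating factor, a membrane protein that speeds the breakdown of C3 convertases on the cell's own surface. It read 7.34 and 7.08 at E12, 7.04 and 7.17 at E14, 7.57 and 7.45 at E16, 8.34 and 8.31 at E18, 8.71 and 8.65 at P2, 7.56 and 7.70 at P10, and 8.84 and 8.50 in Adult. The P10 arrays lay below those of E18, P2 and Adult with no overlap. Cd55 fell by 1.05 at P10 against P2 (adjusted p = 0.000218) and rose by 1.04 in Adult against P10 (adjusted p = 3.03e-05). It was the one member lower between successive time points or in Adult against E12, with all arrays in the fit. Before birth it was higher at E18 than at E16 by 0.81 (adjusted p = 0.000128), and Adult exceeded E12 by 1.46 ± 0.12 (SE, limma adjusted p = 1.64e-07). Of that difference 76.2% was present at E18 and 28.7% at P10, and the other Cd55 probe sets had 53.2% and 43.4% at E18. The increase of E16 over E14 was 0.41 (adjusted p = 0.0381) and was lost without any one of the E14, E16 or P2 arrays (adjusted p 0.0536 to 0.223). The low at P10 was also read by both other Cd55 probe sets, with P10 minus P2 at -1.23 (adjusted p = 0.000405) and -0.58 (adjusted p = 0.033). In the same step 4.37% of all genes were lower. Among marker lists, 5 of 7 neutrophil markers (median -1.42), 3 of 5 mesothelium markers (-0.63) and 2 of 5 leukocyte markers (-0.37) were lower. Of 12 macrophage markers (-0.29), 3 were lower and 1 was higher. Of 8 interferon response genes 1 was lower, and of 5 heart muscle markers 1. No alveolar type II, liver or fibroblast marker was lower, and 1 of 5 fibroblast markers was higher. The part of these cells and genes in the Cd55 values was not tested.

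C3ar1, the receptor for the C3a fragment, read 6.19 and 6.34 at E12, 6.44 and 6.39 at E14, 6.47 and 6.66 at E16, 6.23 and 6.43 at E18, 6.60 and 6.58 at P2, 6.53 and 6.38 at P10, and 6.52 and 6.19 in Adult. The values lay within a narrow span, the Adult arrays overlapped those of E12, and the highest mean was 6.59, at P2. Of all pairs of its time points, P2 against E12 passed, with P2 higher by 0.33 (adjusted p = 0.0385). Adult minus E12 was 0.09 ± 0.12 (SE, limma adjusted p = 0.548), with a 95% interval of -0.17 to 0.35. Its other probe sets followed the main one loosely, with r of 0.52 and 0.24 over the 14 arrays. Both passed the test across the time points (adjusted p = 0.0396 and 0.014), and the dimmest was higher in Adult than in E12 by 0.48 (adjusted p = 0.00716), so the 3 probe sets of C3ar1 did not give 1 course.

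**Figure D3:**
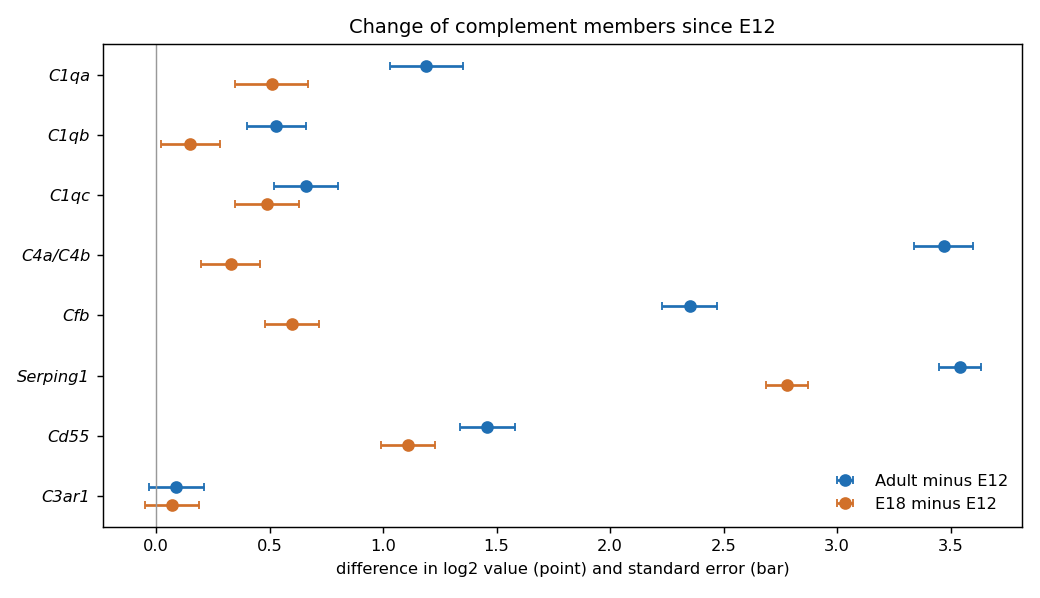
Difference from E12 in log2 units (x axis) for each of the 8 measured members (y axis), with Adult minus E12 above E18 minus E12 and bars of 1 standard error. At E18 Serping1, Cd55 and C1qc stood at 78.5%, 76.2% and 74.7% of their Adult difference, and C4a/C4b stood at 0.33 at E18 and 3.47 in Adult. The other Cd55 probe sets stood at 53.2% and 43.4% at E18. For C1qc both differences were small, at 0.49 and 0.66 (SE 0.14 each), and P2 minus E12 was 0.11 (limma adjusted p = 0.526).

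Step by step, 0 of 8 members passed between E14 and E12, where 3.41% of genes were higher and 0.918% lower. Between E16 and E14, 5 were higher (the C1q chains, Serping1 and Cd55), where 9.95% of genes were, and without single arrays this count ran from 1 to 5, with 1 without E14 replicate 1, E14 replicate 2 or E16 replicate 1, 2 without E16 replicate 2 and 3 without either P2 array. Between E18 and E16, 3 were higher (Cfb, Serping1 and Cd55) and 0 lower, against 24.8% and 21.6% of genes. P2 against E18 had 1 higher member, Cfb, against 8.58% of genes, and the count was 3 without either Adult array, while 1 member was lower without either P10 array. P10 against P2 had 2 higher members, C1qc and C4a/C4b, and 1 lower, Cd55, against 4.82% and 4.37% of genes, with 0 higher without P2 replicate 1 and 1 higher without P2 replicate 2 or either P10 array. Adult against P10 had 4 higher members, C4a/C4b, Cfb, Serping1 and Cd55, and 0 lower, against 16.8% and 14.9% of genes. The study's thresholds were also applied here to single steps, as a change above 1.2 with the higher mean above 7. The counts of higher members were then 0 at E16 against E14 (1.14% of genes), 1 at E18 against E16 (4.11%) and 0 at P2 against E18 (0.539%). They were 0 at P10 against P2 (0.264% higher and 0.264% lower) and 2 in Adult against P10 (2.04%). With all arrays in the fit, the members called higher between E14 and E16 thus included the C1q chains, and those called after P10 did not. The C1q calls at E16 were lost without either E14 array or E16 replicate 1. A step that was not called is not shown to be absent.

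Of 48 pairs of neighbours in the members' orders of time points, 37 could not be told apart. Adult was the highest mean in the 7 members that changed, except that Cd55 averaged 8.68 at P2 and 8.67 in Adult on its main probe set. Its other probe sets had Adult above P2, at 9.35 in Adult and 8.86 at P2 and at 7.67 in Adult and 7.26 at P2. C4a/C4b, Cfb and Serping1 had Adult above the next time point beyond the spread.

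The genes whose values ran most like each member's over the 14 arrays were sought among 11657 genes with a mean above 7. For Serping1 they were Tcn2 (r = 0.996), Irf8 (0.995) and Zc3hav1 (0.995), and 1848 genes had an r above 0.9, so that this course was common. For Cfb they were Casp1 (0.99), Gsta3 (0.989) and B4galnt1 (0.988), and for C4a/C4b they were Ccn5 (0.986), Nrn1 (0.986) and Ces2g (0.985), with 742 and 299 genes above 0.9. Cd55 ran with Reg3g (0.97), Vmp1 (0.967) and Fam47e (0.966), and 184 genes were above 0.9. C1qa had Cpq (0.95), Pam (0.948) and Tm2d2 (0.947) and 101 genes above 0.9, whereas C1qb had 1, Phkg2 (0.915), followed by Mon1a (0.863) and Gramd1b (0.86). C1qc had Fkbp8 (0.887), Urgcp (0.885) and Phkg2 (0.885), and C3ar1 had Nsun4 (0.785), Hdgfl1 (0.767) and Cdkn2d (0.766), with 0 genes above 0.9 for either. Each r is over arrays that share time points and is given as a description. Of these 24 places, 7 were kept when the 7 means were used and 4 with Spearman's rho.

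Of 49 other complement genes, 39 were measured. Between Adult and E12, 19 were higher and 6 lower, with a median change of 0.31, against 35% of all genes higher, 30.2% lower and a median of 0.08. By role, 6 of 12 genes of the classical and lectin start were higher and 3 lower, 2 of 6 terminal components were higher and 1 lower, 5 of 13 regulators were higher and 1 lower, and 6 of 7 receptors were higher and 0 lower. Some of the genes called, including several of the receptors and Colec10, had no mean above 7 at any time point. Cfp, the gene of properdin, which stabilises the alternative convertase, was lower by 0.68 in Adult (8.15 and 8.22 in Adult, 8.97 and 8.76 at E12, adjusted p = 0.000421). The proteases of C1 had large increases. C1s1 read 10.35 and 10.46 in Adult, against 4.95 and 4.41 at E12, a difference of 5.72 ± 0.19 (SE, limma adjusted p = 1.36e-11). C1ra read 10.20 and 10.26 in Adult, against 5.81 and 5.75 at E12, a difference of 4.45 ± 0.21 (SE, adjusted p = 4.66e-10). C2, which supplies the protease of the classical convertase and lies next to Cfb on chromosome 17, read 8.97 and 8.91 in Adult, against 6.59 and 6.58 at E12 (2.35 ± 0.11, SE, adjusted p = 4.68e-10). These proteases and C2 thus had larger increases on the log2 scale than any of the 3 chains of C1q.

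**Figure D4:**
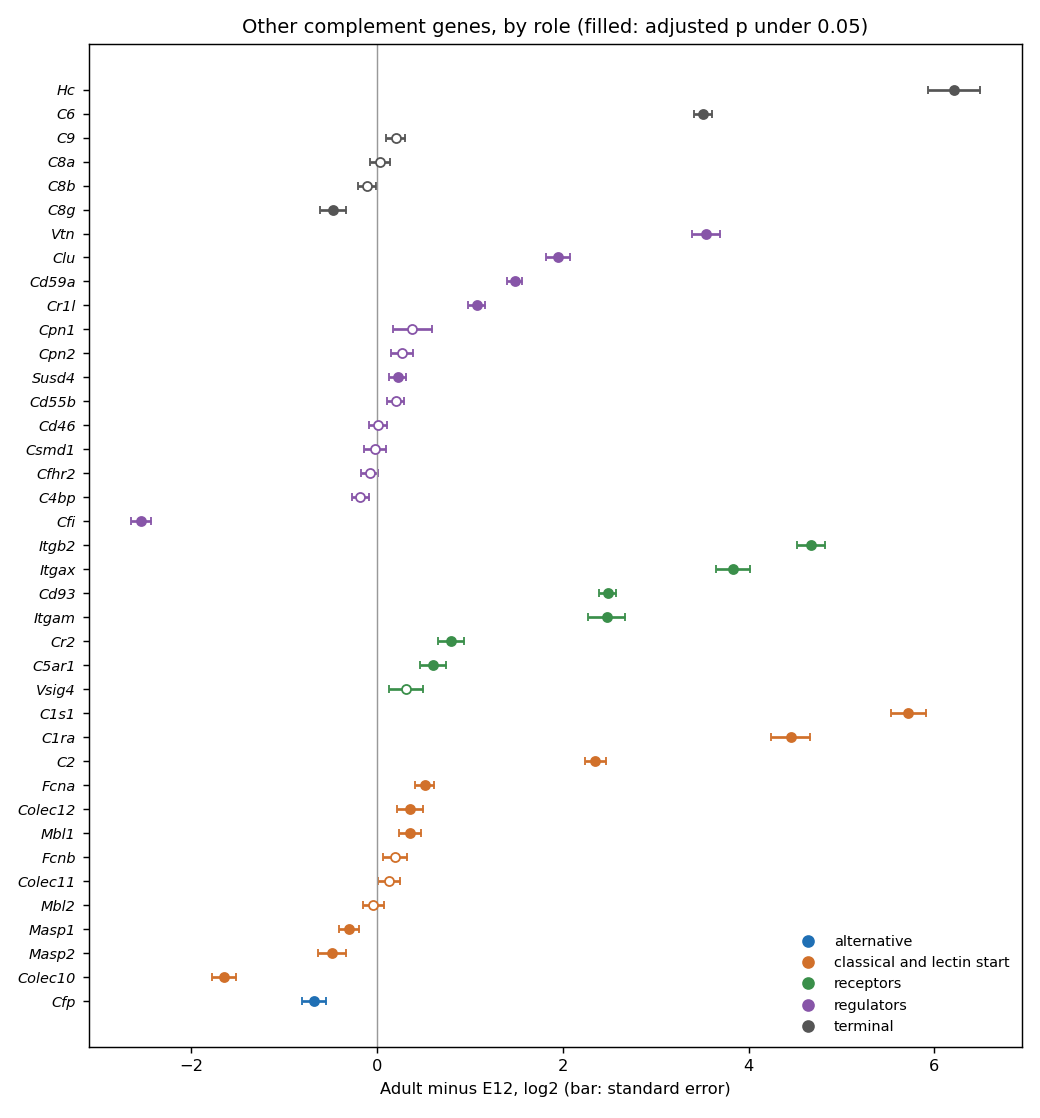
Adult minus E12 in log2 units (x axis, bars of 1 standard error) for the 39 other measured complement genes (y axis), coloured by role, with filled points at an adjusted p under 0.05. The values run from -2.54 for Cfi to 6.21 for Hc, and 14 points are open.

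Among terminal components, which build the membrane attack complex, Hc (the mouse gene of C5) read 5.35 and 5.53 at E12, 6.37 and 5.23 at E16, 11.39 and 11.32 at E18 and 11.41 and 11.88 in Adult. E18 exceeded E16 by 5.56 ± 0.28 (SE, limma adjusted p = 5.11e-09), and Adult exceeded E12 by 6.21 ± 0.28 (SE, adjusted p = 2.53e-10). C6 read 9.68 and 9.68 at E18, against 6.49 and 6.57 at E16 (3.15 ± 0.10, SE, adjusted p = 3.48e-10), and Adult minus E12 was 3.51 ± 0.10 (SE, adjusted p = 5.42e-12). Both genes thus made their step before birth, in the interval in which Serping1 made its largest step. C8a, C8b and C9 did not pass, with differences of 0.03, -0.11 and 0.20.

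The regulators ran in different directions. Cfi, the gene of factor I, which cleaves C3b and C4b, read 8.56 and 8.37 at E12, 9.25 and 9.39 at E14, 9.04 and 9.24 at E16, 5.54 and 5.64 at E18 and 5.92 and 5.93 in Adult. It fell by 3.55 at E18 against E16 (limma adjusted p = 2.67e-10) and was lower in Adult than in E12 (-2.54 ± 0.11, SE, adjusted p = 1.31e-10). Clu, the gene of clusterin, which blocks assembly of the attack complex, read 9.40 and 9.48 at E12, 11.98 and 11.83 at E16, 9.57 and 9.74 at E18, 9.54 and 9.55 at P10 and 11.51 and 11.27 in Adult. It fell by 2.25 at E18 against E16 (adjusted p = 1.7e-08) and was above E12 in Adult by 1.95 ± 0.13 (SE, adjusted p = 1.27e-08). Vtn, the gene of vitronectin, which also blocks that assembly, read 8.27 and 8.86 in Adult, against 5.02 and 5.04 at E12 (3.54 ± 0.15, SE, adjusted p = 1.5e-10). Cd59a, a membrane inhibitor of the attack complex, was higher in Adult and Colec10, a lectin of the lectin pathway, was lower.

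**Figure D5:**
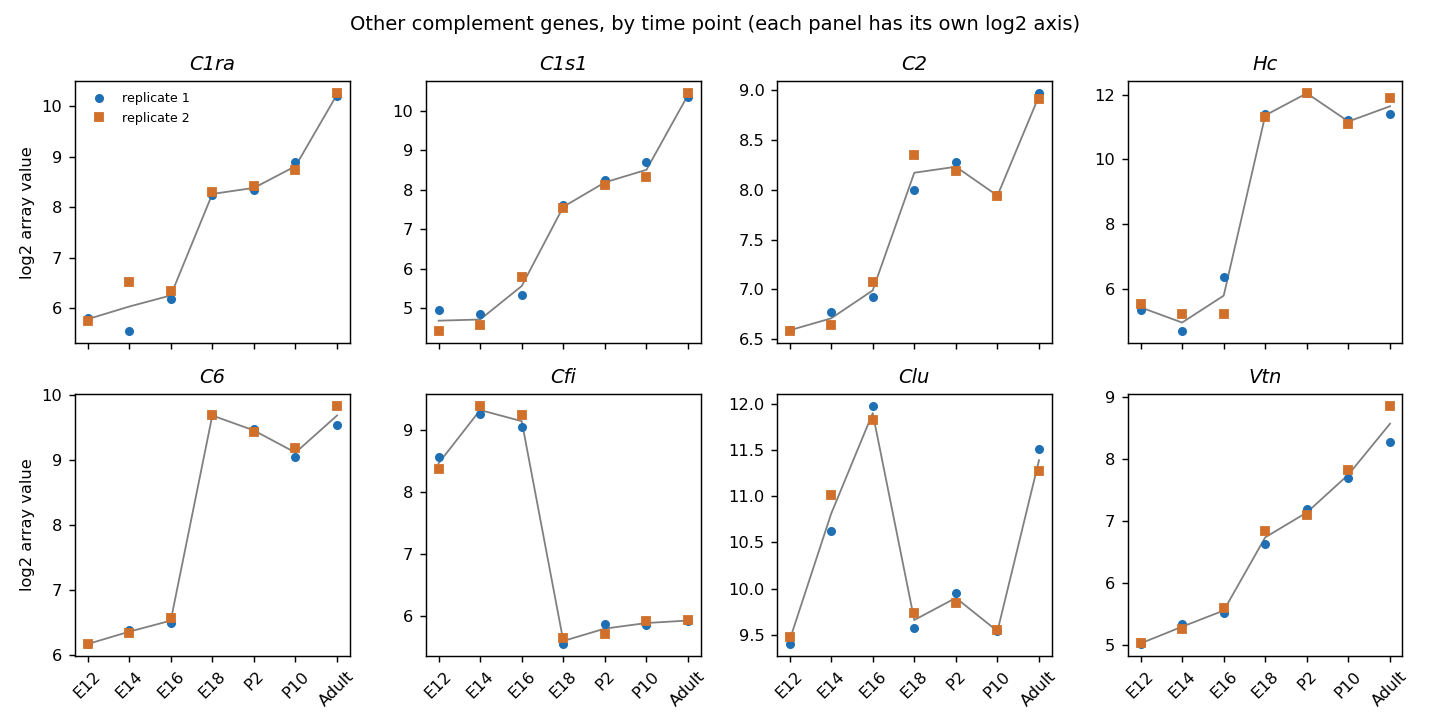
Log2 array values of 8 other complement genes (y axis, a separate scale in each panel) at the 7 time points (x axis, evenly spaced), with circles for replicate 1, squares for replicate 2 and a line through the means. Hc and C6 step up and Cfi and Clu step down between E16 and E18, and Clu returns to 11.51 and 11.27 in Adult.

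The receptors that rose were mainly those of leukocytes. Itgb2, the beta chain of complement receptors 3 and 4, read 10.36 and 10.53 in Adult, against 5.82 and 5.73 at E12 (4.67 ± 0.15, SE, limma adjusted p = 1.27e-11). Its partner chains Itgax and Itgam were higher in Adult by 3.83 ± 0.18 (SE, adjusted p = 3.88e-10) and 2.47 ± 0.20 (SE, adjusted p = 8.18e-08), although Itgam stayed low, at 6.32 and 6.47 in Adult and 3.70 and 4.15 at E12. Cd93, a membrane lectin of endothelial and myeloid cells once described as a C1q receptor, was higher by 2.48 ± 0.095 (SE, adjusted p = 5.57e-11). Vsig4, a macrophage receptor for C3b, did not pass (0.31, adjusted p = 0.171).

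Markers of several cell types moved over the same time points. The 12 macrophage markers were all higher in Adult than in E12, with a median change of 2.29 and a range of 0.36 (Msr1) to 9.18 (Chil3), and their mean level was 9.78 and 9.82 in Adult and 6.84 and 6.84 at E12. Their increase was thus larger in the median than that of any C1q chain. Some of these markers, down to Msr1 at 0.36, nevertheless rose less than C1qa (1.19). The 5 leukocyte markers were all higher, with a mean level of 10.60 and 10.68 in Adult and 7.31 and 7.30 at E12. All 8 measured interferon response genes were higher as well, by 1.75 (Irf7) to 4.50 (Gbp2), with a mean level of 9.24 and 9.38 in Adult and 5.86 and 5.91 at E12. The part of these cells and of the interferon response genes in the members' values was not tested. Liver, the main source of plasma complement, was represented by 9 measured markers, which lay between 4.0 and 7.33 on all arrays, with 1 higher and 2 lower in Adult than in E12. Of neutrophil markers 4 of 7 were higher, of mesothelium markers 3 of 5 were higher and 1 lower, and of fibroblast markers 2 of 5 were higher and 2 lower. All 4 measured alveolar type II markers were higher (median change 4.9), as were 3 of 5 heart muscle markers (median 3.08). Over all genes 35% were higher and 30.2% lower. The part of these cell types in the members' values was not tested either.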

How the data were processed

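The authors deposited log2 values for 14 arrays, and these were analysed without further normalization. The methods name Partek 6.4 with Robust Multichip Average and the processing notes name Partek 6.4 with GCRMA, so it is not known which normalization was used. Values already normalized across arrays carry no count depth, and precision is limited by 2 arrays per time point. The 64 control probe sets were left out. Of 45037 probe sets, 34945 had 1 gene symbol in the platform annotation, 932 several and 9160 none, and assembly GRCm38.p6 served for names, neighbours and promoters. Each gene was represented by its brightest probe set, that is, the one of highest average.

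The fit used limma 3.58.1 in R 4.3.3 (residual df 7, prior df 6.04), with a moderated F test, the 21 contrasts between pairs of time points and a threshold of 0.05 on the adjusted p. It was tested on simulated data with known changes in Adult, all larger than most of the members' steps given above, including every C1q step. Changes as small as those steps were not simulated. Members were counted in 7 of the contrasts, which were Adult against E12 and every step between successive time points. Alternatives were array centring, quantile normalization, a filter at a highest mean of 7, other moderation and an unmoderated analysis of variance. Further alternatives were a spline over time (splines 4.3.3), the study's thresholds, other probe sets, a replicate block and each array left out.

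The members and all lists were chosen with earlier results of these data known. Named genes are the members, the 3 genes with the highest Pearson r to each, the other complement genes that passed with a change above 1.2 (up to 12 with values, the rest by name), and the highest and lowest marker of a list. Cfp, C8a, C8b, C9 and Vsig4 were named after their values were seen.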

Additional observations from a re-analysis of the deposited data

How the results depend on the processing

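Across 24 single changes of members, 508 of 551 values under an alternative kept their direction and side of the threshold, 41 lost the call, 1 gained it and 1 turned round. C3ar1 Adult minus E12 ran from -0.07 (without Adult replicate 1) to 0.25 when single arrays were left out, and its dimmest probe set gave 0.48. The study's thresholds gave 4 members changed across the 7 time points. Applied to single contrasts, they gave 4 higher in Adult than in E12, 0 higher at E16 against E14 and 1 at E18 against E16. They gave 0 at P2 against E18, 0 higher and 0 lower at P10 against P2, and 2 in Adult against P10. An unmoderated analysis of variance gave 1 higher at E16 against E14 and 0 at P10 against P2. For E16 against E14 the dimmest of 3 probe sets and the mean of the probe sets gave 3 each. For P2 against E18, 3 were higher after the filter on low values, and 2 after quantile normalization, with the second probe sets or with the mean of the probe sets, and 1 was lower with trended and robust moderation. Leaving out single arrays gave 1 to 5 higher at E16 against E14, 1 to 3 higher and 0 to 1 lower at P2 against E18 (1 lower without either P10 array), 0 to 2 higher at P10 against P2, and 36 to 40 neighbours not told apart. The genes most like a member kept 7 and 4 of 24 places. Beyond the construction of each alternative, the cause was not tested. Replicate numbers did not pair the samples (21 correlations of deviations from -0.18 to 0.0768), and with the replicate block 4 members were higher at E16 against E14, C1qc having an adjusted p of 0.0511, while all other counts were those without it.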
